A study of Homo sapiens with 7 samples.

Results

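The histone gene cluster on the short arm of chromosome 6, at 6p22, was examined in 7 lists of chromatin loops made by HiChIP, a method that joins DNA ends lying close together in fixed nuclei and enriches the joined fragments with an antibody. The members were all loops with the middle of at least 1 anchor between positions 25700000 and 28400000 of chromosome 6 (hg19), a window of 2.7 Mb. There were 37 such loops among 135475 in all, and they fell into 5 of the 7 lists. An anchor is the stretch of DNA at an end of a loop, and the count of a loop is taken here as its number of supporting read pairs.

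All libraries came from HEC-1-B, an established human uterine adenocarcinoma line, or from lines derived from it. Unmodified (wild-type) cells were used with antibodies to ZNF143, CTCF and RAD21. ZNF143KO cells, which lack ZNF143, were used with antibodies to CTCF and RAD21. CTCF-AID cells make CTCF fused to a degron, so that adding auxin (IAA) causes CTCF to be degraded. They were used with an antibody to ZNF143 at 0 h and at 24 h of auxin treatment. The labels state 500 μM auxin and TiR1-expressing cells, and do not say whether each derived line was a single clone. Each group had 1 library, so no difference below has a replicate check, no p-value is given, and every interval covers counting error only. The removal of ZNF143 and of CTCF was not checked here.

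Histones are the proteins around which DNA is wrapped, and the replication-dependent histone genes supply them while DNA is copied. At 6p22 these genes lie in separate subclusters, with other gene families between them. ZNF143 is a zinc-finger transcription factor that binds promoters, CTCF is a zinc-finger protein known for holding cohesin at loop ends, and RAD21 is a subunit of cohesin, the ring complex that extrudes loops. In the RefSeq gene order of GRCh38, 55 protein-coding histone genes lie here, in 4 groups separated by over 100 kb. The groups hold 2 genes (H2AC1 and H2BC1), 32 genes (H1-1 to H4C8), 5 genes (H2BC11 to H2AC12) and 16 genes (H2BC13 to H2BC17). By type there are 6 H1, 12 H2A, 15 H2B, 10 H3 and 12 H4 genes. Solute carrier genes of the SLC17A family follow the first group, the butyrophilin (BTN) genes follow the second, and ZNF391 and ZNF184 lie between the third and the fourth. The same gene order also lists 101 transfer RNA (tRNA) genes. From the last histone gene to ZSCAN23 there are 14 protein-coding genes, of which 12 belong to a set of zinc-finger, SCAN-domain and related genes such as ZNF165, ZSCAN16, ZKSCAN8, PGBD1 and ZSCAN31.

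No gene positions of the lists' build were used, so the subclusters were represented by round blocks, and loop anchors were not assigned to genes. Block 1 is 0.1 Mb long and starts with the window. Block 2 is 0.3 Mb long and starts 0.3 Mb into the window. Block 3 is 0.2 Mb long and starts 1.3 Mb into it, and block 4 is 0.2 Mb long and starts 2 Mb into it. Each block was given a flank of 10 kb, holds other DNA besides histone genes, and took an anchor by the anchor's middle.

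No contact between different histone blocks was listed. Of the 37 loops, 0 joined 2 blocks and 0 had both anchors in the same block. A count of 0 among 37 loops allows a share of up to 8.11%, and the limit is 17.6% for the 17 loops of CTCF-AID cells at 0 h and 21.4% for the 14 loops at 24 h. These limits cover counting error only. Wild-type RAD21 was the only list with anchors in 2 different blocks. In the other lists the 0 followed from where the anchors lay, so it says little about contacts between blocks. The blocks lie 0.2 Mb (nearest edges of blocks 1 and 2) to 2.2 Mb (farthest edges of blocks 1 and 4) apart, and the lists hold spans of 20 kb to 2 Mb, so nearly all contacts between blocks would be of a listed length. Contacts under 20 kb, such as those between neighbouring histone genes, would not be.

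Blocks 1 and 2, which stand for the first 34 of the 55 histone genes in order, held 0 anchors in all 7 lists. The first anchor of the window began at position 26572356, 872 kb into it. Block 3 held 1 anchor and block 4 held 2. The 37 loops rested on 24 distinct anchors 1223 to 3721 bp long. Of these, 1 lay between blocks 2 and 3, 6 between blocks 3 and 4, and 14 after block 4, including 1 just past the end of the window. Loops with both anchors after block 4 made up 24 of the 37, of which 21 had both inside the window. Only 6 loops touched a histone block at either end. Of these, 5 rest on the 2 anchors of block 4, which also holds DNA before the first histone gene of its group, so these anchors may lie outside the histone genes. The same limit holds for the 1 anchor of block 3, since that block also holds other DNA. The arcs of all loops show this lopsided layout.

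**Figure D1:**
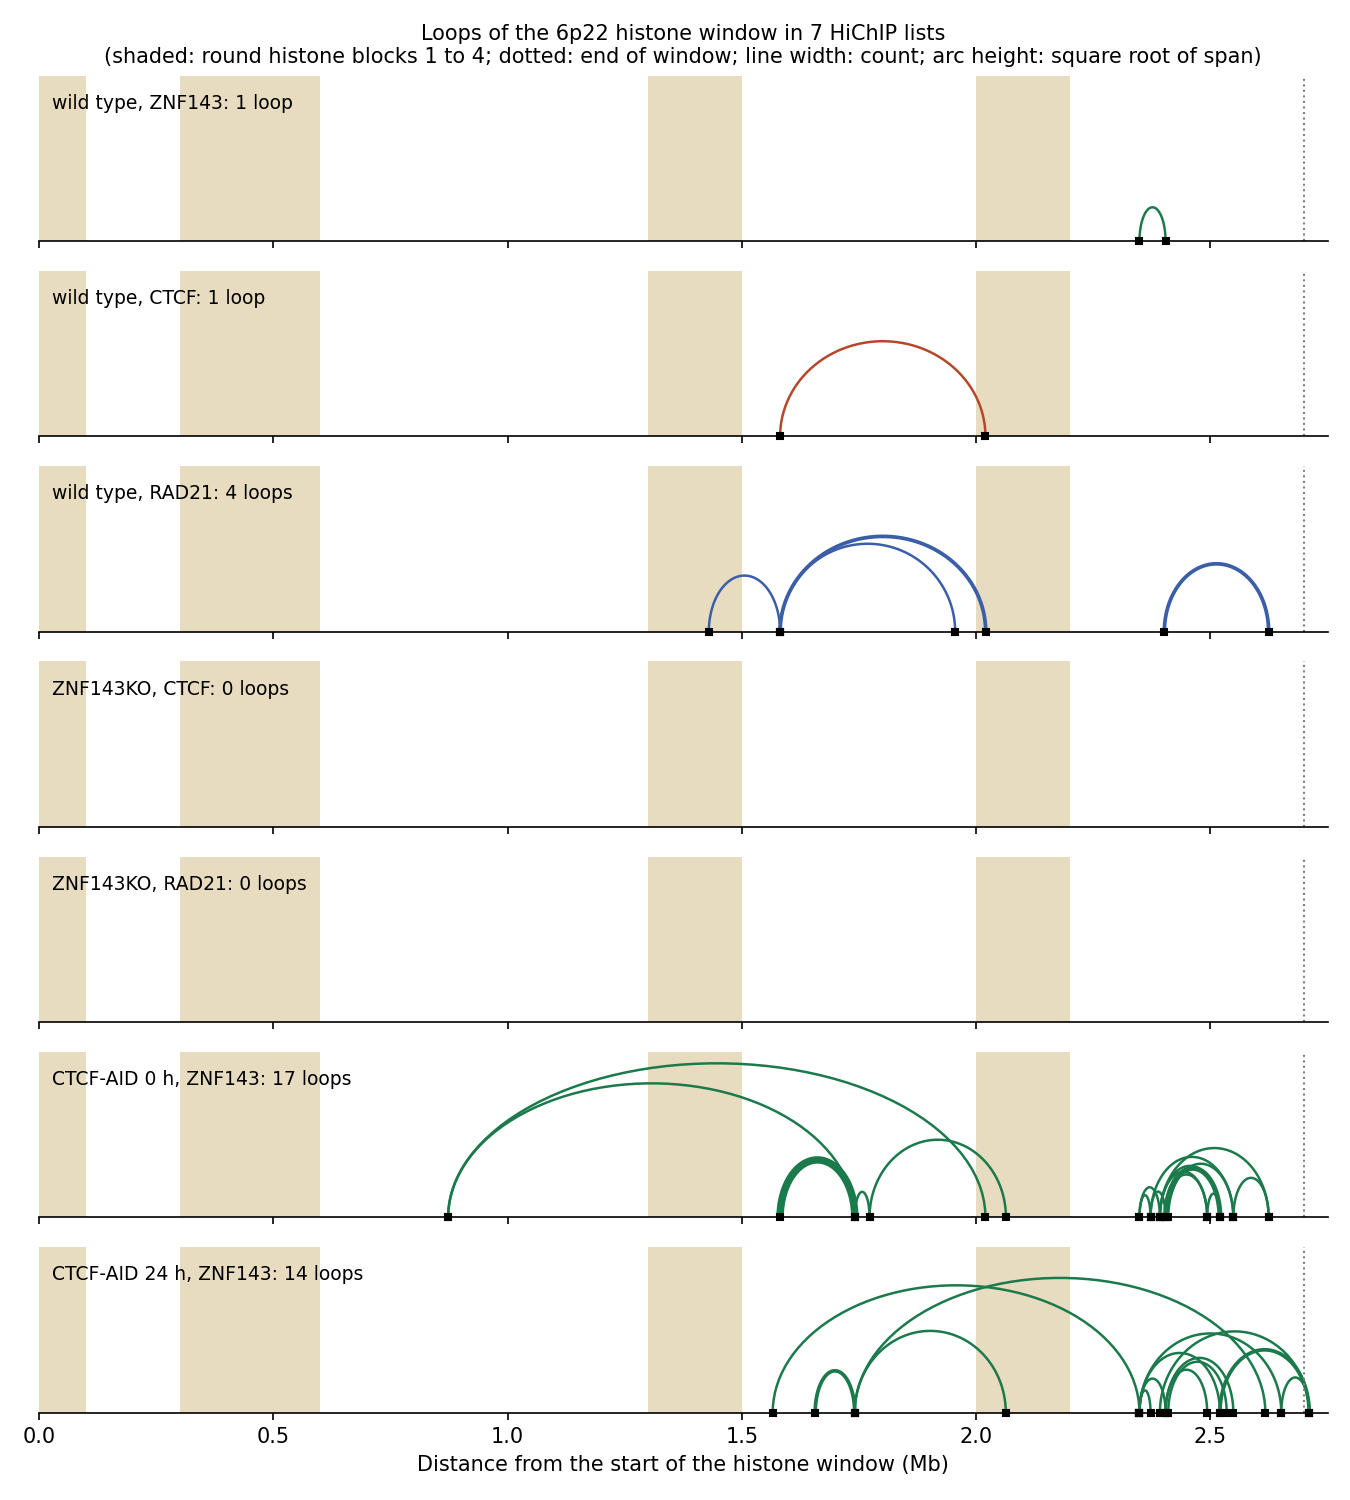
Each panel is a list, each arc a loop, and the x axis is the distance in Mb from the start of the histone window. Shading marks the 4 round histone blocks, squares mark anchors, line width follows the count and arc height the square root of the span. No arc joins 2 shaded blocks, the ZNF143KO panels are empty, and most CTCF-AID arcs lie to the right of block 4.

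The 6 loops that touched a histone block each ran from that block to non-block DNA. In wild-type cells, a RAD21 loop joined block 3 (27128325 to 27130637) to an anchor between blocks 3 and 4 (27279760 to 27283480) over 152 kb with a count of 2. The same anchor was joined to the near edge of block 4 (27718907 to 27720978) by a CTCF loop with a count of 2, over 438 kb. A RAD21 loop joined the same places over 439 kb with a count of 3. The anchor at 27279760 was therefore linked to block 3 on its left and to block 4 on its right by separate RAD21 loops, although no listed loop joined the blocks to each other. Neither of the ends in a block was placed on a histone gene.

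In CTCF-AID cells 3 ZNF143 loops touched block 4, each with a count of 2. At 0 h, its near edge (27718907 to 27720978) was joined to 26572356 to 26573722, between blocks 2 and 3. With a span of 1147 kb this was the longest of the 37 loops. A second place in block 4 (27762314 to 27765002) was joined at 0 h to 27470996 to 27474037, over 291 kb. At 24 h that place (there 27762314 to 27764336) was joined instead to 27439987 to 27441702, over 322 kb. Block 3 was touched in the RAD21 list alone, by 1 loop.

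As listed, the window held most loops in the ZNF143 lists of CTCF-AID cells and none in the lists of ZNF143KO cells. This order does not hold with the CTCF-AID counts divided by 2 and loops of at least 2 kept, which leaves 2 loops at 0 h and 0 at 24 h, against 4 for wild-type RAD21. The window held 1 of 19313 wild-type CTCF loops (0.00518%, 95% Wilson interval 0.000914 to 0.0293), and 4 of 16788 wild-type RAD21 loops (0.0238%, 0.00927 to 0.0613). It held 1 of 11981 wild-type ZNF143 loops (0.00835%, 0.00147 to 0.0473). In ZNF143KO cells there were 0 of 15597 CTCF loops and 0 of 10804 RAD21 loops, which allows shares of up to 0.0192% and 0.0278% by the limit of 3 counts, or 0.0246% and 0.0355% by the upper end of the Wilson interval. In CTCF-AID cells the window held 17 of 40405 ZNF143 loops at 0 h (0.0421%, 0.0263 to 0.0674) and 14 of 20587 at 24 h (0.0680%, 0.0405 to 0.114). The interval of the 0 h share overlapped those of all 3 wild-type lists and of RAD21 in ZNF143KO cells, and lay above that of CTCF in ZNF143KO cells. The interval of the 24 h share lay above those of CTCF in wild-type cells and of both ZNF143KO lists, and overlapped those of wild-type ZNF143 and RAD21.

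To place these numbers, chromosome 6 was cut into consecutive stretches of the window's length, and loops with an anchor in each were counted in the same way. The stretches at both ends of the chromosome run past it, so they hold less DNA, and they are among the 63 counted. Over the 61 whole stretches alone, a setting chosen after seeing the data, the medians rose from 7 to 8 for CTCF in ZNF143KO cells and from 16 to 17 for ZNF143 at 0 h, and the other 5 medians were the same. For CTCF in wild-type cells the median of 63 other stretches was 11 loops, against 1 in the window, and 7 of the 63 had as few or fewer. For RAD21 in wild-type cells the median was 11, against 4 in the window, and 20 stretches had as few or fewer. In ZNF143KO cells the medians were 7 for CTCF and 5 for RAD21, against 0 in the window, and 5 and 4 stretches were likewise empty. For ZNF143 the window was near or above the median. It held 1 loop against a median of 2 in wild-type cells, 17 against 16 at 0 h (17 over whole stretches) and 14 against 3 at 24 h. Of the 63 stretches, 29, 35 and 50 had as few or fewer in these lists, and the highest at 24 h had 103.

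**Figure D2:**
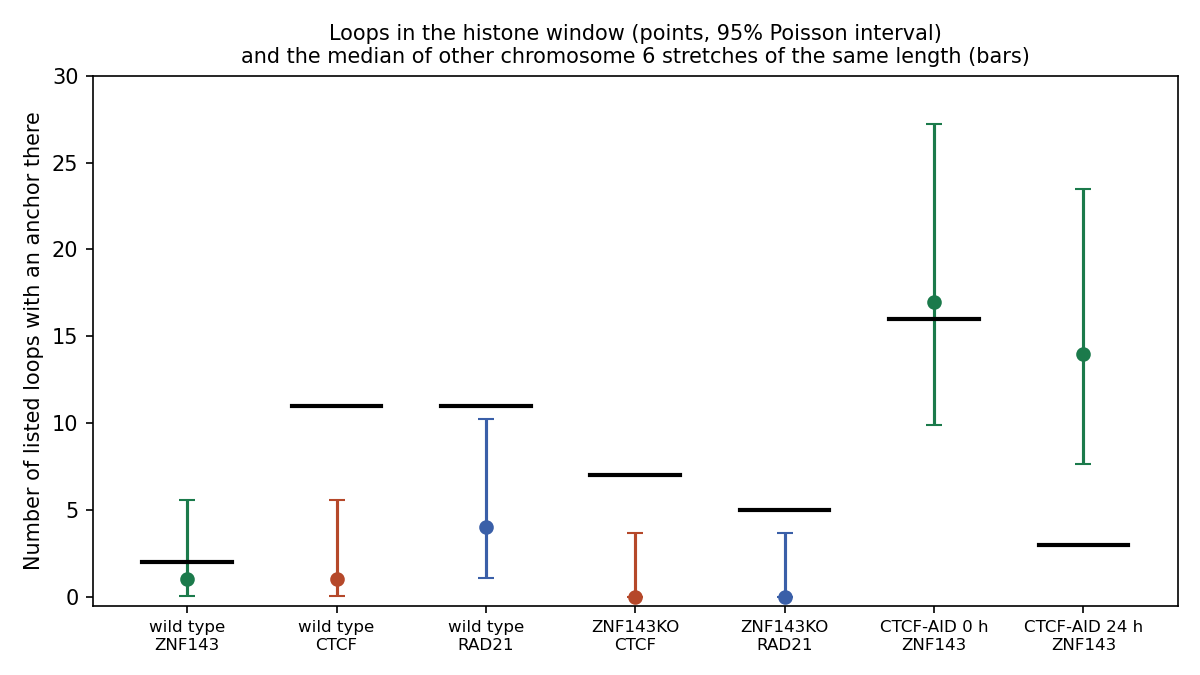
Points are the numbers of listed loops in the histone window for each list, with 95% Poisson intervals, and black bars are the median number in 63 other stretches of chromosome 6 of the same length. The CTCF points (1 and 0) and the RAD21 points (4 and 0) lie below their bars of 11, 7, 11 and 5, and the CTCF-AID points are 17 against a bar of 16 at 0 h and 14 against a bar of 3 at 24 h.

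The sparse listing was not limited to the window. The stretch just before it held 0 to 5 loops per list. The stretch just after it held 0 loops in all 5 lists of wild-type and ZNF143KO cells, but 43 and 29 ZNF143 loops in CTCF-AID cells at 0 h and 24 h, of which 3 at 24 h were also members by their other anchor. In the RAD21 list of ZNF143KO cells no anchor had its middle within 14.95 Mb around the window, the longest such gap on chromosome 6 in that list. For CTCF in ZNF143KO cells the gap was 8.76 Mb, again the longest. Both ZNF143KO gaps covered the whole window, as gaps of lists with 0 loops there must. In the other lists a long gap reached into part of the window. For ZNF143 the gap ended inside the window, at 28048631 in wild-type cells (9.54 Mb) and at 26573038 at 0 h (6.74 Mb). Both were the longest on the chromosome in their lists. At 24 h it ended at 27265810 (8.94 Mb). For wild-type CTCF and RAD21 the gap instead started inside the window, at 27719942 (5.83 Mb) and 28324373 (5.13 Mb). The absence of histone-window loops in ZNF143KO cells thus lay within a far larger stretch without loops. The next loops that were not members had their first anchor 5058 to 5148 kb beyond the end of the window in these 5 lists and 2216 kb beyond it in both CTCF-AID lists. With 1 library per group, cell line and library cannot be told apart. Whether the 7 lists were mapped to the same set of hg19 sequences, which differ between versions in the alternative haplotypes of the neighbouring MHC region, is not given in the sources used here and was not tested. This limit bears on comparisons of CTCF-AID with wild-type or ZNF143KO loop numbers after the window. Whether it also bears on loop numbers in the window itself was not tested.

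**Figure D3:**
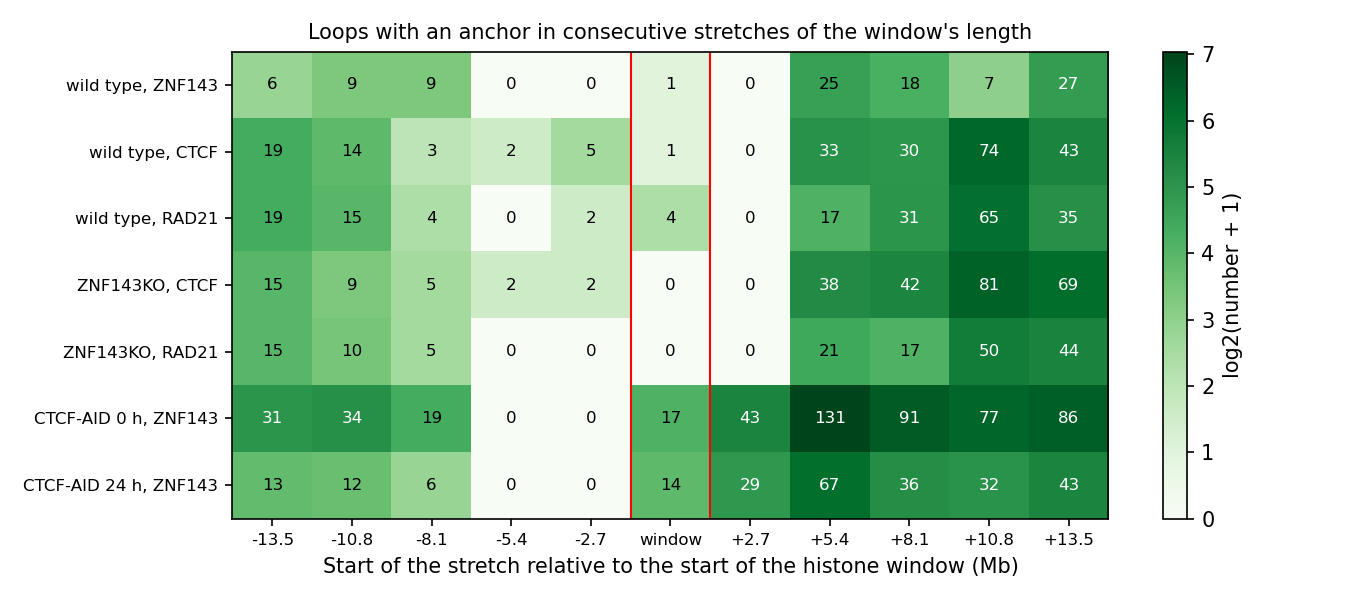
Rows are the 7 lists, columns are consecutive stretches of 2.7 Mb by their start relative to the start of the histone window, and each cell gives the number of loops with an anchor there (colour, log2 of the number + 1). Wild-type and ZNF143KO rows have 0 to 5 loops from the second stretch before the window to the first after it, whereas the CTCF-AID rows have 14 to 43 loops in the window and the stretch after it.

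The effect of losing ZNF143 could be read from 5 wild-type loops at most. The wild-type CTCF loop was not found again in ZNF143KO cells (0 of 1), against 39.1% of all wild-type CTCF loops. None of the 4 wild-type RAD21 loops was found again (0 of 4, Wilson interval 0 to 48.99%), against 34.1% of all RAD21 loops. A loop was found again when both anchors, extended by 5 kb, overlapped those of a loop in the other list. Had RAD21 loops here changed in number as in the rest of the list, by a factor of 0.644, 2.57 would be left of 4. The observed ratio of 0 had an interval of 0 to 1.51, which includes 0.644, so a change particular to the histone window was not detectable at this depth. All 5 loops had counts of 2 or 3.

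CTCF and cohesin shared 1 loop here. The CTCF loop from 27279760 to the edge of block 4 was found among RAD21 loops (1 of 1, against 46.4% of all CTCF loops), and conversely 1 of 4 RAD21 loops was found among CTCF loops (against 52.2%). The other RAD21 loops were the one to block 3, one from 27279760 to 27654562 to 27656023 (374 kb, count 2) and one after block 4, from 28100815 to 28102760 to 28323491 to 28325256 (223 kb, count 3). Cohesin loops at 27279760 thus formed a fan of 3 loops from a single anchor. That anchor took part in 3 RAD21 loops and 1 CTCF loop in wild-type cells, in 1 ZNF143 loop in CTCF-AID cells at 0 h and in none at 24 h.

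The only wild-type ZNF143 loop joined 28047470 to 28049794 to 28103442 to 28105207, over 55.7 kb with a count of 2. It was found in neither the CTCF list (0 of 1, against 19.0% of all wild-type ZNF143 loops) nor the RAD21 list (0 of 1, against 16.3%). It was not found in CTCF-AID cells at 0 h (against 59.6%) but was found at 24 h (1 of 1, against 41.2%), again with a count of 2. Both of its anchors served other loops at 0 h, 2 loops at the first anchor and 3 at the second.

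In CTCF-AID cells the ZNF143 loops lay mostly after block 4, where zinc-finger and SCAN-domain genes follow the histone genes in the gene order. At 0 h, 12 of 17 loops (70.6%, 46.9 to 86.7) had both anchors there, all inside the window. At 24 h it was 10 of 14 (71.4%, 45.4 to 88.3), of which 7 had both anchors inside the window and 3 ended just past it. The 12 loops at 0 h used 9 anchors, and 11 of them had a count of 2, the lowest listed. The 10 loops at 24 h used 11 anchors, and 9 of them had a count of 2.

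The anchors with the most loops differed between the time points. At 0 h the leading anchor was 28091686 to 28092908 with 4 loops, joined to 28047470, 28192058, 28219483 and 28323491. It was followed by 6 anchors with 3 loops each. At 24 h it had 1 loop, and the leading anchor was 28047470 to 28049794 with 5 loops. Those 5 loops went to 27264903, 28071451, 28103442, 28219483 and 28350596. The anchor had had 2 loops at 0 h. The anchor at 28103442 had 3 loops at both times, as did the one at 27439987 between blocks 3 and 4. The anchor at 28409975 to 28411897, just past the end of the window, had 3 loops at 24 h and none in any other list. Its middle lies outside, so these 3 loops were members by their other anchor.

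**Figure D4:**
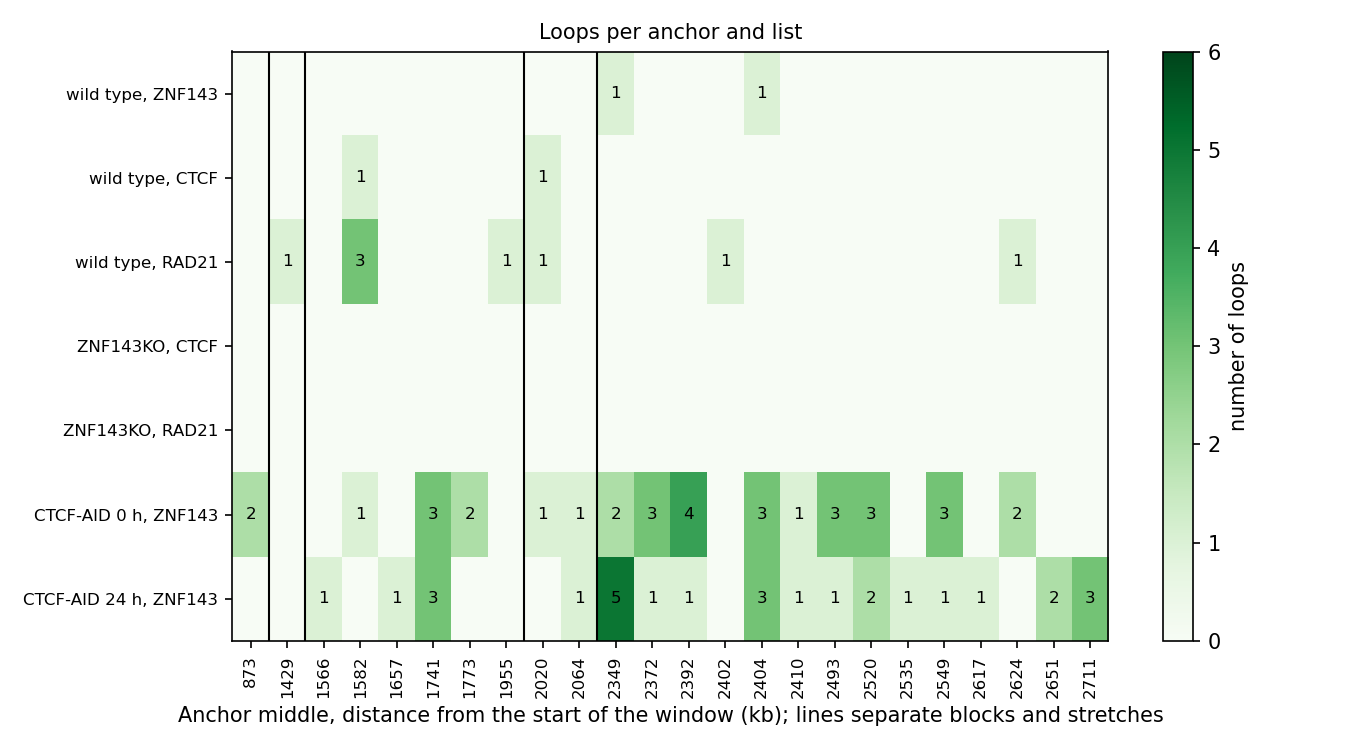
Columns are the 24 anchors, labelled by the distance of their middle from the start of the histone window in kb, rows are the 7 lists, and each number is how many loops the anchor took part in. Black lines separate blocks and the stretches between them. The anchor at 1582 kb has 3 RAD21 loops, the one at 2349 kb goes from 2 loops at 0 h to 5 at 24 h, and the one at 2392 kb goes from 4 to 1.

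The number of ZNF143 loops in the window was 0.824 times as high at 24 h as at 0 h (exact binomial interval 0.376 to 1.78), compared with 0.509 in the rest of the list. The ratio of these ratios was 1.62 (0.797 to 3.28), an interval that includes 1. With the CTCF-AID counts divided by 2 it turned from 1.62 to 0, since no loop was left at 24 h. Of the 17 loops at 0 h, 3 were found at 24 h (17.6%, 6.19 to 41.0), against 24.7% over the whole list, and 3 of the 14 loops at 24 h were found at 0 h (21.4%, 7.57 to 47.6), against 45.4%. Both shares lay below those of the whole lists, and both intervals include them. Of 21 anchors used at either time, 10 were used at both (47.6%), 5 at 0 h alone and 6 at 24 h alone. Over the whole of both lists, with anchors merged in the same way, 36.3% of 22297 anchors were used at both times.

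The loops found at both times all lay after block 4 and had counts of 2 in each list. The first joined 28047470 to 28049794 to 28071451 to 28073113, over 23.7 kb, the shortest span of the 37. The second joined 28103442 to 28105266 to 28192058 to 28194260, over 88.8 kb. The third was a match of neighbours rather than of the same anchors. At 0 h it ran from 28109072 to 28111050, and at 24 h from 28103442 to 28105266, in both cases to 28247784 to 28250144.

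The loops with the highest counts at each time point were not listed at the other, which most loops of the whole lists were not either at 0 h (24.7% found at 24 h) and at 24 h (45.4% found at 0 h). The loop with the highest listed count of all 37 joined 27279760 to 27283480 to 27440361 to 27441702 at 0 h, between blocks 3 and 4, over 159 kb with a count of 6. It was not listed at 24 h. The next joined 28103442 to 28105266 to 28219483 to 28221319 at 0 h, over 116 kb with a count of 4, and was not listed at 24 h either. Wild-type RAD21 loops reached a count of 3, and whether counts stand on the same scale in all lists was not tested. At 24 h the highest count was 3, for the loop from 27355743 to 27357366 to 27439987 to 27441702 (84.3 kb) and for the loop from 28219483 to 28221319 to 28409975 to 28411897 (191 kb). Neither was listed at 0 h. Loops that crossed a histone block were listed at both time points, each with a count of 2. At 0 h 2 loops crossed block 3, from 26572356 to 27440361 over 868 kb and from 26572356 to block 4 over 1147 kb. At 24 h 2 loops crossed block 4, from 27264903 to 28047470 over 783 kb and from 27439987 to 28315895 over 876 kb. None of these was listed at the other time point.

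Between cell lines, the ZNF143 lists held 17 loops in CTCF-AID cells without auxin against 1 in wild-type cells, a ratio of 17 (2.66 to 710). In the rest of the lists the ratio was 3.37, and the ratio of ratios was 5.04 (0.671 to 37.9), an interval that includes 1. All 17 counts at 0 h were even, and 10.5% of the counts in that list were odd. At 24 h 2 of 14 were odd, against 13.2% of the list. In the other 5 lists 25.4% to 31.9% of counts were odd, and whether counts stand on the same scale in all lists was not tested. With the CTCF-AID counts divided by 2, and loops of at least 2 kept, 2 loops would be left at 0 h and 0 at 24 h. The ratio of 17 would then be 2, and the ratio of ratios 2.28 rather than 5.04.

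In CTCF-AID cells the median span in the window lay below that of the whole list, at 0 h with both quartiles below it and at 24 h with the list median inside the quartiles. The median span was 116 kb at 0 h (quartiles 43.7 and 177 kb), compared with 236 kb over the list. At 24 h it was 158 kb (quartiles 85.4 and 315 kb), compared with 300 kb. The 4 RAD21 loops spanned 152 to 439 kb with a median of 298 kb, compared with 160 kb over their list. A count of 2 was held by 88.2% of the window's loops at 0 h and 85.7% at 24 h, against 69.0% and 59.0% over the lists. For wild-type RAD21 it was held by 50% of the 4 loops, against 48.4% over the list.

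Over all lists, 33 distinct pairs of anchors were joined. Of these, 4 were in 2 lists: the pair shared by CTCF and RAD21, the pair shared by wild-type ZNF143 and ZNF143 at 24 h, and the 2 pairs shared by 0 h and 24 h. The remaining 29 (87.9%) were each in 1 list, and 0 were in 3 or more. Over all loops of the 7 lists, 70.4% of 90685 pairs were in 1 list and 12.5% in 3 or more. Of the 24 anchors, 11 were used in 1 list (45.8%, against 37.9% of all 39456 anchors), 9 in 2 and 4 in 3. The 4 anchors used in 3 lists began at 27279760, 27718907, 28047470 and 28103442. The first lies between blocks 3 and 4 and the next in block 4, and both were used by CTCF, RAD21 and 0 h ZNF143 loops. The last pair lay after block 4 and was used by ZNF143 loops in wild-type cells and at both time points. A RAD21 anchor (28100815 to 28102760) lies beside the last of them without overlapping it, and would overlap it with the extension of 5 kb used to match loops.

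Since anchors could not be placed on genes, the promoters themselves were searched for the ZNF143 core letters CCCANNATG on both strands, a search added after the data were seen. RefSeq promoters of 300 bases (GRCh38) were found for 50 of the 55 histone genes, and 0 of their 54 promoters held these letters. Of 16 promoters of 9 zinc-finger and SCAN-domain genes after the last histone gene, 1 held them, that of ZKSCAN4. Among all 35116 promoters the share was 4.63%. At that share few matches would be found among 54 promoters, and whether the histone share differs from it was not tested. A match describes letters only, and no listed loop was tied to any of these promoters.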

How the data were processed

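HiChIP loop lists of 7 libraries, 1 per group, were used. Per the submitters' processing notes, HiC-Pro and the genome build hg19 were used. The loop caller and its filters are not given in the sources used here. The authors deposited a whole-number count per loop, from 2 upwards and not scaled to a common depth. The library depth is unknown, and the total count over listed loops was 33460 to 143119. Starts are written counting from 1.

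Loops were taken by the window rule, assigned to round histone blocks by anchor middles and matched between lists after extending the anchors of the first list by 5 kb. Merged anchors overlap by at least 1 bp. The matching was tested on made-up loops. Intervals are 95% Wilson, exact binomial, Poisson or log-scale intervals and cover counting error only, since read pairs that copy a single molecule are not independent. Named loops were the highest counts per list, those touching blocks, and the highest lost and gained counts. Loops listed in more than 1 library and loops that cross a block were named after their values were seen. The members, blocks and lists were chosen with earlier results of these data known. Gene order came from RefSeq GRCh38.p14, for names only. A search of anchors for motifs was not run, because no genome of the lists' build was used here, and a search of promoters was added after the data were seen. Python 3.11.15, pandas 2.3.3 and scipy 1.17.1 were used. Alternatives were a minimum count of 3, both anchors in the window, flanks of 50 kb, extensions of 0 and 10 kb, shares of the summed count, the rest of chromosome 6 as the comparison, and CTCF-AID counts divided by 2.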

Additional observations from a re-analysis of the deposited data

How the results depend on the processing

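Of 44 values recomputed under other settings, 40 stayed inside the counting interval of the reported value or, for median spans, the interval between its ordered spans. Many of these could not move, since a share or ratio of 0 stays 0 when loops are removed or weighted by count. For the share of loops between histone blocks, only the flank of 50 kb could have changed the value, and it stayed 0. With the CTCF-AID counts divided by 2, no loop was left at 24 h, so the ratio of 24 h to 0 h became 0 and its ratio to the rest of the list reversed from 1.62 to 0. Between the ZNF143 lists of wild-type and untreated CTCF-AID cells, the ratio of 17 became 2 there, and its ratio to the rest of the list went from 5.04 to 2.28. At a minimum count of 3, which left 2 loops at each time point, 0% of the 0 h loops were found at 24 h. Fewer loops are the construction of both settings. At a minimum count of 3, the wild-type CTCF and ZNF143 lists held 0 loops in the window, so their ratios and shares have no value there. The ratio to the rest of the list is 0 without an interval for ZNF143KO cells, which held 0 loops, and was not recomputed under other settings. No paired analysis was possible because each group had 1 library. Each comparison rests on few loops, 37 in all with counts of 2 to 6, and on single libraries.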
